A study of Mus musculus with 12 samples.

Results

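The RNA levels of 10 genes of calcium entry, extrusion and store handling were measured in the abdominal aorta of mice, as rows of a table of 55092 features. The genes were chosen by symbol, with earlier results of these data known. All 10 were found: Cacna1c, Cacna1h, Cacnb2, Itpr1, Ryr2, Atp2a2, Atp2b4, Trpc1, Trpc6 and Stim1. Of these, 9 reached the level set for testing, which was 1 FPKM or more in 3 or more libraries, as did 14676 of all features. FPKM is the number of sequenced fragments divided by the exon length of the gene and by a scale factor of the library, so its values can be set side by side between genes.

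Smooth muscle contracts when cytosolic calcium rises and binds calmodulin, which activates myosin light chain kinase. Calcium enters through voltage-gated and TRP channels of the plasma membrane and is released from the sarcoplasmic reticulum through inositol trisphosphate receptors and ryanodine receptors. Pumps then return it to the store or expel it from the cell, and STIM proteins sense an empty store and open channels in the plasma membrane.

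The study compared 12 male mice in 4 groups of 3, each library being the bulk RNA of an abdominal aorta, its infrarenal part by the paper. All mice carried floxed CCN2 alleles (CCN2fl/fl) and received 5 doses of tamoxifen at 8 weeks of age, followed by 2 weeks of washout. CCN2SMCΔ mice also carried Myh11-Cre-ERT2, which deletes CCN2 in smooth muscle cells, whereas CCN2fl/fl mice had no Cre, so the presence of Cre and the loss of CCN2 cannot be told apart. Mini-osmotic pumps gave saline or angiotensin II (Ang II, 500 ng/kg/min), and tissue was taken on day 7. By then the paper found infrarenal aneurysms in nearly all CCN2SMCΔ mice given Ang II. It found only a few mild ones, higher in the aorta, in CCN2fl/fl mice given Ang II. Which sequenced aortas held an aneurysm is not stated, and the part of aneurysm in the results below was not tested. The groups are named CFS (CCN2fl/fl, saline), CSS (CCN2SMCΔ, saline), CFA (CCN2fl/fl, Ang II) and CSA (CCN2SMCΔ, Ang II), and each mouse by its group and number.

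The libraries held 14558580 to 23107807 recovered fragments. CSA03 had the lowest depth and stood apart, with a root mean square log2 distance of 1.21 from CSA01 and 1.20 from CSA02, against 0.505 between CSA01 and CSA02 and 0.586 to 0.743 within the other groups. The targeted gene Ccn2 was at 1013, 1105 and 564 FPKM in CFA and at 255, 331 and 399 FPKM in CSA, with no overlap. Its log2 fold change there was -1.41 (SE 0.34, limma adjusted p = 0.00622), short of the fold limit of a call given below. The part of the lower smooth muscle RNA of CSA in that difference was not tested. Ccn2 ranged from 480 to 1108 FPKM in CFS and from 436 to 640 FPKM in CSS, so its level does not by itself separate the saline groups. The summed level of 9 smooth muscle markers was 8383 to 10520 FPKM in CFS, 7879 to 8942 in CSS, 5683 to 8566 in CFA and 819 to 974 in CSA. Leukocyte markers were at their highest in CSA: those of macrophages summed to 1885 to 2029 FPKM, against 287 to 582 in CFA, those of neutrophils to 512 to 564 against 11 to 27.9, and those of T cells to 17.8 to 24.7 against 0.683 to 2.19. Between CSA and CFA, 9 of 9 smooth muscle markers were called lower, and 7 of 8 macrophage, 6 of 6 neutrophil and 6 of 6 T cell markers were called higher. Of 6 endothelial markers 3 were called lower (summed level 109 to 142 FPKM in CSA and 187 to 424 in CFA), as were 2 of 6 adipocyte markers (55.1 to 95.9 and 89.7 to 258). B cell markers, 2 of 5 tested and 1 called higher, summed to 4.61 to 7.91 FPKM in CSA and to at most 3.90 elsewhere. Fibroblast markers, of which 0 of 7 were called, summed to 4570 to 5423 FPKM in CSA and 2824 to 3138 in CFA. Schwann cell and nerve markers, with 0 of 5 called, summed to 20.7 to 23.6 FPKM in CSA and 12.3 to 16.1 in CFA, and to 30.7 in CFS68 and 24.8 in CSS55. The endothelial sum of CFS69, 90.3 FPKM, was the lowest of the 12 libraries, against 379 and 388 in the other CFS mice. Skeletal muscle markers summed to 153 FPKM in CFS68 and 244 in CSS55 and to at most 5.57 elsewhere, and cardiac markers summed to between 2.71 and 5.84 in all 12 libraries. In bulk tissue, fewer smooth muscle cells and less RNA per cell cannot be told apart, and the part of the cell mixture in the results below was not tested.

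RefSeq start sites on GRCm38.p6 were matched for 7 of the 10 genes, 10 sites in all since Cacna1c had 3 and Cacnb2 had 2, and the 250 bases upstream of 4 of them are printed 5′ to 3′ on the strand of the gene. Ryr2 (chr13:12106946-12107195, minus strand) had the largest estimated fall among the 9 tested genes between CFA and CSA, and Stim1 (chr7:102267569-102267818, plus strand) had the smallest, on the log2 scale with 0.1 FPKM added. Trpc1 (chr9:95750349-95750598, minus strand) and Trpc6 (chr9:8543892-8544141, plus strand) are a tested and an untested channel of the same family. Capitals mark the letters GGGCGG, the core of a GC box, read on either strand, and in Trpc6 a CArG box, the element bound by serum response factor.
Ryr2: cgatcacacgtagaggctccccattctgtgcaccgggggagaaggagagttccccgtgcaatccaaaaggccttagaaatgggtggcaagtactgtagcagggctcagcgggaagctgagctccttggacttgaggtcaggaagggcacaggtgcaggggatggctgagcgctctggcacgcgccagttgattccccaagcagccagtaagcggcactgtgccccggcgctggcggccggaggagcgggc
Stim1: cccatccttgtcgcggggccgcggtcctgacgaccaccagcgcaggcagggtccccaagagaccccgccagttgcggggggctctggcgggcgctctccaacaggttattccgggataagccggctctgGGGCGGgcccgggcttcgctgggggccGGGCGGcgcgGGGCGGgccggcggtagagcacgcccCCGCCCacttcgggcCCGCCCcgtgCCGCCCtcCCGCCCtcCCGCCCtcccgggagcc
Trpc1: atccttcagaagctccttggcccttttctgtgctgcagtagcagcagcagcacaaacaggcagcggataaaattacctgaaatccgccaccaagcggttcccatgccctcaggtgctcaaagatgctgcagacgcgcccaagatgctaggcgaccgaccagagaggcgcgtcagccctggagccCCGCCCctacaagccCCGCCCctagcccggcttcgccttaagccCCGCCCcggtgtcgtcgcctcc
Trpc6: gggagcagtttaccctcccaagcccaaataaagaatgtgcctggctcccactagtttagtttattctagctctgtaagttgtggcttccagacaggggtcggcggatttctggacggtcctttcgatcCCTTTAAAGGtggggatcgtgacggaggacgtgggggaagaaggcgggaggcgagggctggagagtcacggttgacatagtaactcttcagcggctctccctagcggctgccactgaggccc
The letters GGGCGG occurred 8 times upstream of Stim1 and 3 times upstream of Trpc1, and were present in 4 of the 10 promoters, near the 32.7% of 32851 promoters of the same length. A CArG box was found in 1 of the 10, that of Trpc6, at position -122 from the start, and in 1.47% of all promoters. The letters TATAAA were found in 0 of the 10 on either strand and in 12.4% of all promoters. The GC content was 63.2% for Ryr2, 78.4% for Stim1, 62.8% for Trpc1 and 56.4% for Trpc6, beside a median of 52.4% over all promoters. A match is a description of letters and says nothing of binding.

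In every group Atp2a2 was the most abundant of the 10 genes and Trpc6 the least. Mean levels in CFS ran from 130 FPKM for Atp2a2 through 33.4 for Atp2b4, 23.9 for Itpr1, 11.6 for Stim1 and 5.91 for Cacna1c, each apart from the next. Cacnb2, Trpc1, Ryr2 and Cacna1h followed at 3.99, 2.96, 2.48 and 2.09 FPKM, and each of these overlapped with its neighbour in that order. The order of the first 5 genes was the same in the 4 groups, but in CSA the values of Itpr1 and Stim1 overlapped, at means of 4.70 and 4.57 FPKM. Ryr2 ranked sixth in CSS and eighth in the other groups.

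**Figure D1:**
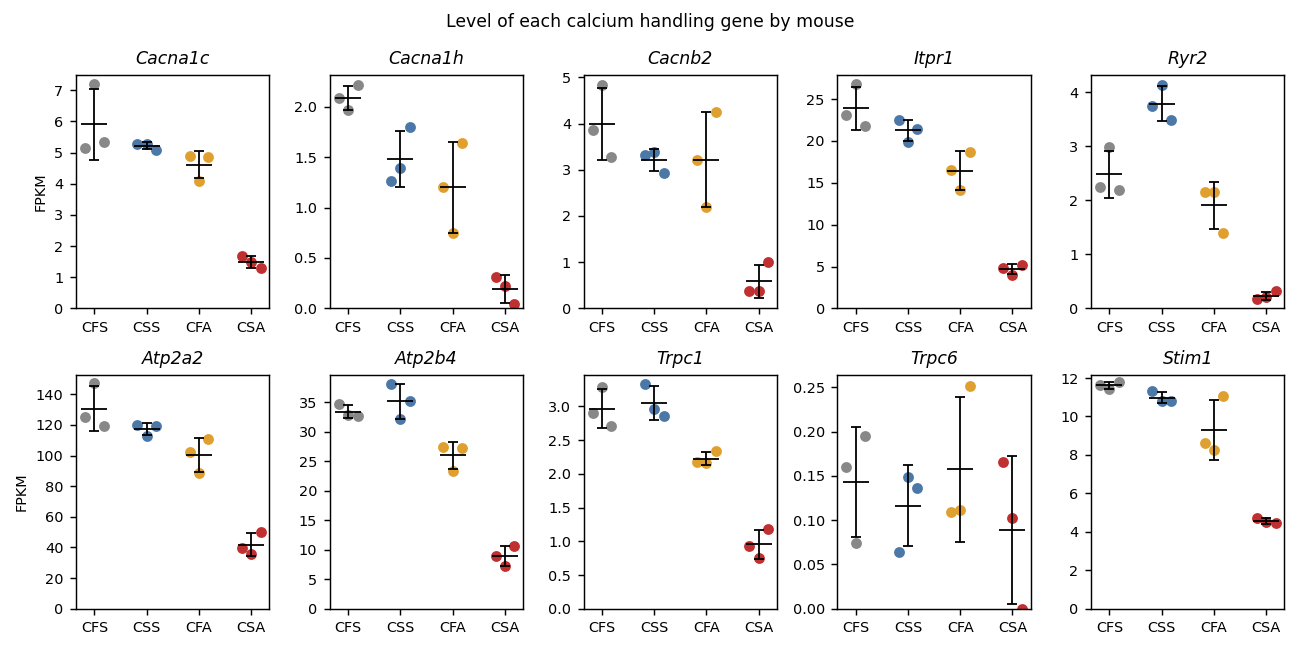
Level of each gene in FPKM on a linear axis from 0, 1 point per mouse in groups CFS, CSS, CFA and CSA, with the mean (wide bar) and SD of 3 mice. In 9 panels the 3 CSA mice lie below every other mouse, and in the Trpc6 panel the groups overlap.

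The main comparison asked how the deletion bears on these genes under Ang II. All 9 tested genes were lower in CSA than in CFA, with no overlap between the groups, and 6 passed both limits of a call, 0.05 for the adjusted p and 1.5 for the size of the log2 fold change. These 6 were Ryr2, Cacnb2, Cacna1h, Itpr1, Cacna1c and Atp2b4. Of all tested features, 8.27% were called lower by the same limits, 21.2% passed the adjusted p alone in that direction, and 25.1% were lower without overlap. The median log2 fold change of the 9 genes was -1.58, beside -0.04 over all features. Since the genes were chosen with earlier results of these data known, their standing beside all features is a description only. Adjusted p-values here and below are from limma with Benjamini-Hochberg adjustment over 14676 features.

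Cacna1c (ENSMUSG00000051331, chr6:118587240-119196418, GRCm38, as for all genes here) encodes the pore of the L-type calcium channel Cav1.2, the main route of voltage-gated entry in arterial smooth muscle. Its level was 5.16, 7.21 and 5.35 FPKM in CFS, 5.28, 5.29 and 5.08 in CSS, 4.89, 4.10 and 4.86 in CFA, and 1.67, 1.49 and 1.29 in CSA. The CSA mice were the 3 lowest of the 12. The log2 fold change between CSA and CFA was -1.58 (SE 0.16, 2.99-fold lower, limma adjusted p = 2.11e-05). Without CSA03 it was -1.49, short of the fold limit.

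Cacnb2 (ENSMUSG00000057914, chr2:14603088-14987908) encodes a β subunit that brings the pore to the membrane and tunes its gating. It was at 3.85, 4.83 and 3.28 FPKM in CFS, 3.32, 3.39 and 2.94 in CSS, 3.20, 2.19 and 4.25 in CFA, and 0.376, 0.381 and 1.0 in CSA. CSA03 held the highest of the CSA values and was still below every mouse of the other groups. The log2 fold change was -2.34 (SE 0.34, 5.08-fold lower, limma adjusted p = 2.44e-04). It shares 7.32% of its exonic bases with Gm10849, which was listed at 0 FPKM.

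Cacna1h (ENSMUSG00000024112, chr17:25374285-25433783) encodes the T-type pore Cav3.2, which opens at more negative voltages. It was at 2.08, 1.97 and 2.21 FPKM in CFS, 1.27, 1.39 and 1.80 in CSS, 1.21, 0.748 and 1.64 in CFA, and 0.313, 0.227 and 0.0401 in CSA. The last 3 values rest on 62, 47 and 6 fragments, with the lowest in CSA03, the shallowest library. The log2 fold change was -2.23 (SE 0.41, 4.68-fold lower on the scale with 0.1 FPKM added, limma adjusted p = 0.00121), the widest error of the 9 genes.

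Release from the store was represented by Itpr1 and Ryr2. Itpr1 (ENSMUSG00000030102, chr6:108213096-108551109), the type 1 inositol trisphosphate receptor, was at 23.1, 26.8 and 21.8 FPKM in CFS, 22.5, 19.9 and 21.4 in CSS, 16.6, 14.1 and 18.7 in CFA, and 4.82, 4.04 and 5.24 in CSA. Every CSA mouse lay under the CFA mice, which themselves lay under both saline groups. Between CSA and CFA the log2 fold change was -1.78 (SE 0.14, 3.45-fold lower, limma adjusted p = 5.53e-06), the lowest adjusted p among the 9 genes.

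Ryr2 (ENSMUSG00000021313, chr13:11553102-12106945) encodes the ryanodine receptor known best from the heart, where calcium entry triggers its opening. It was at 2.25, 2.99 and 2.20 FPKM in CFS, 3.75, 4.13 and 3.49 in CSS, 2.15, 2.16 and 1.40 in CFA, and 0.168, 0.219 and 0.315 in CSA. The CSS mice were the 3 highest and the CSA mice, at 98 to 139 fragments, the 3 lowest of the 12. Between CSA and CFA the log2 fold change was -2.58 (SE 0.24, 5.99-fold lower on the scale with 0.1 FPKM added, limma adjusted p = 1.34e-05). Cardiac markers summed to overlapping low levels in these groups, 2.71 to 3.97 FPKM in CFA and 2.83 to 3.18 in CSA, but of the 3 tested ones Myh6 was called lower (-3.03) and Tnni3 higher (1.56), and 3 of the 6 were not tested.

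Atp2a2 (ENSMUSG00000029467, chr5:122453513-122502225) encodes SERCA2, the pump that refills the sarcoplasmic reticulum. It was at 125, 147 and 119 FPKM in CFS, 120.2, 113 and 119 in CSS, 102, 88.4 and 111 in CFA, and 39.7, 36.1 and 50.0 in CSA. All CSA values lay below the lowest CFA value, and the log2 fold change was -1.27 (SE 0.15, 2.41-fold lower, limma adjusted p = 6.52e-05), past the adjusted p and short of the fold limit.

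Atp2b4 (ENSMUSG00000026463, chr1:133699457-133801041) encodes PMCA4, a pump that expels calcium across the plasma membrane. It was at 34.7, 32.9 and 32.6 FPKM in CFS, 38.1, 32.2 and 35.1 in CSS, 27.4, 23.3 and 27.2 in CFA, and 8.96, 7.23 and 10.6 in CSA. The saline groups overlapped, and CFA and CSA each lay apart from all other groups. Between CSA and CFA the log2 fold change was -1.54 (SE 0.14, 2.92-fold lower, limma adjusted p = 1.36e-05), close to the fold limit, and without CSA02 it was -1.40.

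Trpc1 (ENSMUSG00000032839, chr9:95705082-95750375) encodes a cation channel of the TRP family. It was at 2.90, 3.28 and 2.71 FPKM in CFS, 3.34, 2.96 and 2.86 in CSS, 2.17, 2.17 and 2.33 in CFA, and 0.926, 0.751 and 1.19 in CSA. The CSA mice were again the 3 lowest, and the log2 fold change between CSA and CFA was -1.16 (SE 0.18, 2.23-fold lower, limma adjusted p = 3.63e-04).

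Trpc6 (ENSMUSG00000031997, chr9:8544142-8680741), a channel opened by diacylglycerol, was under 1 FPKM in all 12 libraries and was not tested with the filter on low values. It was at 0.160, 0.0739 and 0.195 FPKM in CFS, 0.0637, 0.149 and 0.136 in CSS, 0.109, 0.112 and 0.251 in CFA, and 0.165, 0.102 and 0 in CSA. These values rest on 6 to 27 fragments where above 0, and the 0 in CSA03 allows up to 3 fragments, or 0.0386 FPKM. The groups overlapped, and with no filter on low values limma gave a log2 fold change of -0.51 between CSA and CFA (adjusted p = 0.462).

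Stim1 (ENSMUSG00000030987, chr7:102267806-102437319) encodes the store sensor. It was at 11.6, 11.4 and 11.8 FPKM in CFS, 11.3, 10.8 and 10.8 in CSS, 8.60, 8.25 and 11.1 in CFA, and 4.73, 4.52 and 4.45 in CSA. The CSA values were close together and below all others. The log2 fold change between CSA and CFA was -0.999 (SE 0.12, 1.999-fold lower, limma adjusted p = 7.77e-05), the smallest of the 9. The 95% intervals of the log2 fold changes of Ryr2, -3.11 to -2.05, and Stim1, -1.27 to -0.73, did not overlap. This order rests on the pseudocount: with 1 FPKM added, the largest estimate was that of Itpr1 at -1.61, Ryr2 was at -1.22 and Stim1 at -0.88, and the smallest was that of Trpc1 at -0.73.

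**Figure D2:**
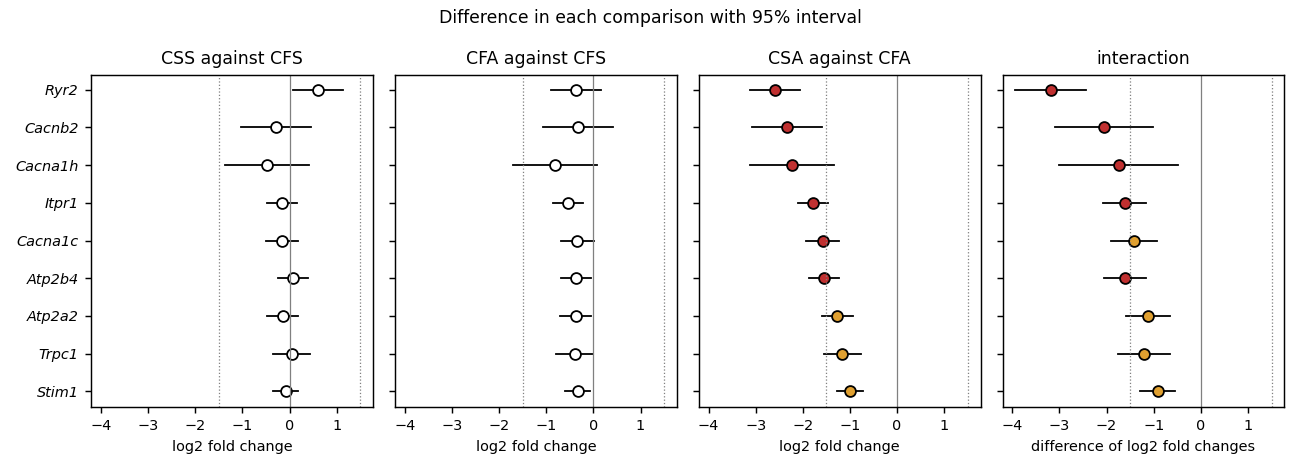
Estimated log2 difference of each tested gene with its 95% interval in 3 comparisons and for the interaction of genotype and Ang II. Red points passed the adjusted p and the fold limit (dotted lines at -1.5 and 1.5), yellow points the adjusted p alone, and white points neither. All 9 genes are red or yellow in the comparison of CSA with CFA and in the interaction, and all are white in the first 2 panels.

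Under saline, the comparison of CSS with CFS asked whether the genotypes differed without Ang II. The log2 fold change of Ccn2 itself was -0.40 (95% interval -1.14 to 0.34) and did not pass. None of the 9 genes was called by limma (0 of 9, with 1 at an unadjusted p under 0.05), beside 0.0136% of all features called and 6.30% at an unadjusted p under 0.05. The gene with an unadjusted p under 0.05 was Ryr2, with a log2 fold change of 0.60 (95% interval 0.07 to 1.13, limma adjusted p = 0.689), and all 3 CSS mice lay above all 3 CFS mice. Without both libraries that held skeletal muscle markers it was 0.48. Cacna1h and Stim1 were lower in CSS without overlap, by log2 differences of -0.48 and -0.08, and neither passed the test. Without overlap, 11.1% of all features were higher and 9.31% lower, beside 1 and 2 of these 9 genes. The interval of the difference reached from -0.35 to 0.19 for Stim1 and from -1.38 to 0.42 for Cacna1h. Fibroblast markers were lower in CSS without overlap, at 1527 to 1772 FPKM against 1947 to 2450 in CFS. T cell markers were higher without overlap, at 1.07 to 2.60 FPKM against 0.233 to 1.05. In either list 0 markers were called, and the part of these markers in the differences was not tested.

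In CCN2fl/fl mice, Ang II was compared with saline. All 9 estimates were below 0, from -0.81 for Cacna1h to -0.33 for Stim1, and 8 genes lay lower in CFA without overlap, the exception being Cacnb2, beside 10.8% of all features. None was called by limma (0 of 9, with 5 at an unadjusted p under 0.05), beside 0.0273% of all features called and 9.42% at an unadjusted p under 0.05. The lowest p-value belonged to Itpr1, with a log2 fold change of -0.54 (SE 0.14, limma adjusted p = 0.2). Atp2a2, Atp2b4, Trpc1 and Stim1 had estimates of -0.38, -0.37, -0.40 and -0.33. With array weights, the adjusted p of limma was 0.0351 for Itpr1 and 0.0474 for Stim1, and the other 7 genes stayed above 0.05. The 9 genes were measured in the same libraries and are not independent of each other. The summed smooth muscle markers of CFA and CFS overlapped, with CFA74 lowest at 5683 FPKM. Fibroblast markers were higher in CFA without overlap, at 2824 to 3138 FPKM against 1947 to 2450 in CFS, as were macrophage markers, at 287 to 582 against 203.7 to 248.5. Their part in these differences was not tested.

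In CCN2SMCΔ mice, the same contrast gave larger differences. All 9 genes passed the adjusted p and lay lower in CSA than in CSS without overlap, and 7 were called, beside 9.36% of features called lower, 23.9% past the adjusted p in that direction and 29.1% lower without overlap. Ryr2 fell 11.8-fold on the scale with 0.1 FPKM added (log2 fold change -3.56, SE 0.24), from the group with its highest level to the group with its lowest. Cacna1h, Cacnb2, Itpr1 and Atp2b4 had log2 fold changes of -2.56, -2.39, -2.16 and -1.98. Cacna1c and Trpc1 followed at -1.75 and -1.60, and Trpc1 was at -1.45 without CSA02. Atp2a2, at -1.498, and Stim1, at -1.25, were short of the fold limit, and Atp2a2 passed it at -1.63 without CSA03 and at -1.53 without CSS55. This contrast shares the CSA mice with the comparison of CSA and CFA. Smooth muscle markers were called lower here too (9 of 9). Macrophage (7 of 8, summing to 223 to 271 FPKM in CSS), neutrophil (6 of 6) and T cell markers (6 of 6) were called higher. Of 7 fibroblast markers 3 were called higher (4570 to 5423 FPKM in CSA, 1527 to 1772 in CSS). Of 6 endothelial markers 3 were called lower and 1 higher, and 2 skeletal muscle and 2 adipocyte markers were called lower. The part of these markers in the differences was not tested.

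The interaction is the log2 genotype difference under Ang II minus that under saline, and tests whether the difference between genotypes changed with Ang II. It was below 0 with an adjusted p under 0.05 for all 9 genes, against 13.7% of all features in that direction. It also passed the fold limit for 5 genes, against 7.31% of features: Ryr2 at -3.19 (SE 0.34, limma adjusted p = 1.18e-04), Cacnb2 at -2.06 (SE 0.47, adjusted p = 0.00869), Cacna1h at -1.75 (SE 0.57, adjusted p = 0.045), Itpr1 at -1.62 (SE 0.20, adjusted p = 2.93e-04) and Atp2b4 at -1.61 (SE 0.20, adjusted p = 3.04e-04). Cacna1c, Trpc1, Atp2a2 and Stim1 were at -1.42, -1.20, -1.12 and -0.92. The count of 5 became 3 without CSA02, where Cacna1h and Atp2b4 (-1.47) were lost, and 4 without CSA03. The call of Cacna1h was lost under 16 of 20 alternatives.

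The log2 fold changes of the 9 smooth muscle markers between CSA and CFA ran from -4.28 to -2.28, with a median of -3.12. All 9 genes had a smaller fall than that median, by 0.54 on the log2 scale for Ryr2 up to 2.12 for Stim1, and 2 of them, Ryr2 and Cacnb2, lay within the range of the markers. The estimates of the low genes depend on the pseudocount. With 1 FPKM added Ryr2 was at -1.22 and Cacnb2 at -1.40, and with 0.01 FPKM added Cacna1h was at -2.88. As a ratio to the markers in each mouse, 6 of the 9 were higher in CSA without overlap, and Ryr2, Cacnb2 and Cacna1h overlapped. By the same measure 91.2% of all features were higher without overlap. The exact permutation test (two-sided) gave p = 0.1 for each of the 6, the smallest p that 3 against 3 mice allow.

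Each gene was then set beside the other members of its family, per mouse and as a share of the summed FPKM. Of 9 shares, 8 were lower and 1 was higher in CSA than in CFA, all without overlap (exact permutation test, two-sided, p = 0.1 each, the smallest possible, over 9 comparisons). These are not separate comparisons, since the genes share mice and Cacna1c and Cacna1h share a denominator, and 25.1% of all features were lower in FPKM without overlap between these groups. That percentage is of levels, not of shares, and the gene in the numerator of each share was itself lower in CSA. Itpr1 made up 69.1% ± 1.7 (SD, n = 3) of its family in CFA and 41.5% ± 3.5 in CSA. In the same mice Itpr2 was at 2.64 and 2.56 FPKM and Itpr3 at 4.79 and 4.04. The share of Atp2b4 was 76.9% ± 3.5 in CFA and 44.4% ± 5.4 in CSA, where Atp2b1 was at 7.11 and 11.5 FPKM. Stim1 held 52.7% ± 5.7 in CFA and 31.3% ± 5.6 in CSA, with Stim2 at 8.30 and 10.3 FPKM. Its share per mouse ran from 49.4% to 59.2% in CFA and from 24.8% to 34.6% in CSA. Ranges of Itpr2, Itpr3 and Stim2 overlapped between CFA and CSA.

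Among the 10 pore genes of voltage-gated channels, Cacna1c fell from 37.4% ± 2.1 to 23.1% ± 0.3 and Cacna1h from 9.59% ± 3.17 to 2.86% ± 1.89. Cacna1d, the pore Cav1.3, was at 0.530 FPKM in CFA and 2.46 FPKM in CSA, above Cacna1c in all 3 CSA mice. Cacnb2 went from 18.2% ± 6.7 to 4.48% ± 4.69 of the β subunits (1.77% without CSA03, which held 9.90%), of which Cacnb3 was the most abundant at 11.5 and 14.8 FPKM. Ryr2 held 91.8% ± 3.2 in CFA and 74.1% ± 6.5 in CSA, where the whole family summed to 0.210 to 0.470 FPKM and the other members, Ryr1 and Ryr3, were too low to be tested. Trpc1 held 85.4% ± 3.5 and 71.5% ± 0.5. The share of Atp2a2 was the exception, at 70.9% ± 6.9 in CFA and 84.4% ± 3.6 in CSA, since Atp2a3, the SERCA3 pump, went from 42.9 to 7.27 FPKM. Per mouse, Atp2a3 was at 40.3, 25.4 and 63.0 FPKM in CFA, beside endothelial marker sums of 302, 187 and 424. In CSA it was at 8.35, 7.41 and 6.07 FPKM, beside sums of 142, 117 and 109. The part of the endothelium in this share was not tested. The skeletal muscle pump Atp2a1 was at 24.5 FPKM in CFS68 and 29.6 FPKM in CSS55, and at most 0.394 FPKM in the Ang II groups.

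**Figure D3:**
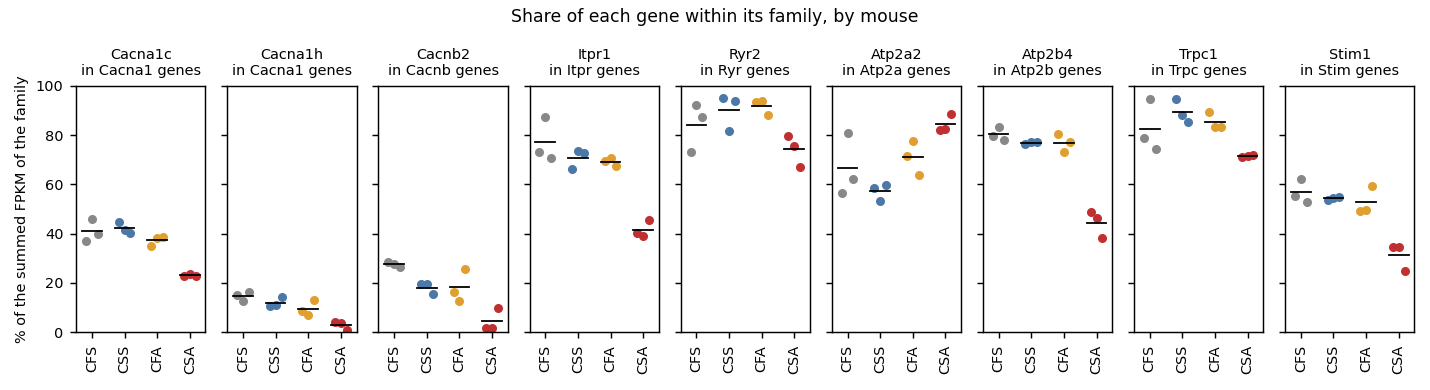
Share of each gene in the summed FPKM of its gene family, in percent, 1 point per mouse, with bars at the group means. The CSA points lie below the CFA points in 8 panels and above them in the panel of Atp2a2.

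The other genes of the pathway came from lists of 98 genes in 8 groups, of which 68 were tested. Between CSA and CFA, 15 were called lower and 2, Cacna1d and Mcub, higher, 30 passed the adjusted p as lower and 4 as higher, and 34 did not pass. Of all features, 8.27% were called lower and 8.95% higher, and 21.2% and 19.5% passed the adjusted p in these directions. The median log2 fold change of the 68 was -0.36, beside -0.04 over all features. Between CSS and CFS, and between CFA and CFS, limma called 0 of these genes and 0 passed the adjusted p, beside 0.0204% and 0.0341% of all features past the adjusted p. At an unadjusted p under 0.05 there were 2 of the 68 between CSS and CFS and 8 between CFA and CFS, beside 6.30% and 9.42% of all features. The lists were chosen with earlier results of these data known.

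Of 6 other tested channel subunits, 1 was called lower and 1 higher. Cacna1g, the T-type pore Cav3.1, fell from 3.98 ± 0.79 to 1.22 ± 0.94 FPKM (mean ± SD, n = 3; log2 fold change -2.06, limma adjusted p = 0.0169), with 0.167 FPKM in CSA03 against 1.99 and 1.502 in the other CSA mice, and without CSA03 it was at -1.14, short of the fold limit. The other was Cacna1d, at 2.21, 2.10 and 3.08 FPKM in CSA and at most 0.758 in the other 9 mice. It reached the level for testing only through the CSA mice, so its call is given as a description and supports nothing. Of 8 other release genes, 3 were called, all lower. Mrvi1, which carries nitric oxide signals to the inositol trisphosphate receptor, went from 84.7 ± 13.4 to 8.49 ± 1.86 FPKM (-3.31). Jph2 and Jph1, junctophilins that tether the store to the plasma membrane, had log2 fold changes of -3.20 and -1.89, and Jph2 was at -2.49 without CSA03. Of 7 other refilling genes, 3 were called lower: Casq1, a calcium buffer of the store (-3.68), Atp2a3 (-2.46) and Pln, the inhibitor of SERCA (-3.22). Casq1 varied widely within CFA, at 25.9, 26.8 and 4.79 FPKM, and its log2 fold change was -3.01 without CSA03. Pln had 0, 5 and 0 fragments in CSA and shares 64.7% of its exonic bases with Gm47644, so its value is uncertain.

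Of 4 other extrusion genes, 2 were called lower: Slc8a2, a sodium-calcium exchanger, went from 7.75 ± 0.79 to 0.650 ± 0.085 FPKM (-3.39, limma adjusted p = 2.22e-07), and Atp2b2, at 0.647 and 0.0723 FPKM, had -1.95. Slc8a1, the exchanger with the higher level in CFA, was at 16.0 and 11.1 FPKM (-0.55, adjusted p = 0.0191). Of 6 other genes listed with the TRP channels, 1 was called, Pkd1 (-1.85). Pkd2, its partner, and Trpm4 were at -0.83 and -1.21, short of the fold limit, and Trpv2 was at 0.63 (adjusted p = 0.0308).

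Of 7 other genes of store-operated entry, 1 was called lower, Tmem110, which encodes a STIM regulator of the endoplasmic reticulum (-1.97). Orai2, a store-operated channel, passed the adjusted p in the other direction at 1.32 (1.78 to 4.75 FPKM, limma adjusted p = 6.41e-04). Orai1 and Orai3 were at 0.36 and -0.40 and did not pass. Among 12 genes of mitochondrial uptake, 1 was called, Mcub, an inhibitory subunit of the uniporter, which rose from 4.98 ± 2.0 to 22.4 ± 5.3 FPKM (2.19, adjusted p = 2.03e-04). Mcu, the pore, was at 3.71 and 3.64 FPKM. Of 18 tested genes of calmodulin, its kinases and calcineurin, 4 were called lower, among them Camk2b, a calmodulin kinase subunit (-4.08, and -3.48 without CSA03), Rcan2, a calcineurin inhibitor (-2.65), and Mylk, myosin light chain kinase and also a smooth muscle marker here (-2.67). Over all listed genes including the 10, 21 were called lower and 2 higher. Without CSA01 the counts were 22 and 1, without CSA02 21 and 1, and without CSA03 19 and 2, the 2 then being Mcub and Orai2 (1.57). Mcub was called higher each time, and Cacna1d was no longer tested once any CSA mouse was left out.

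**Figure D4:**
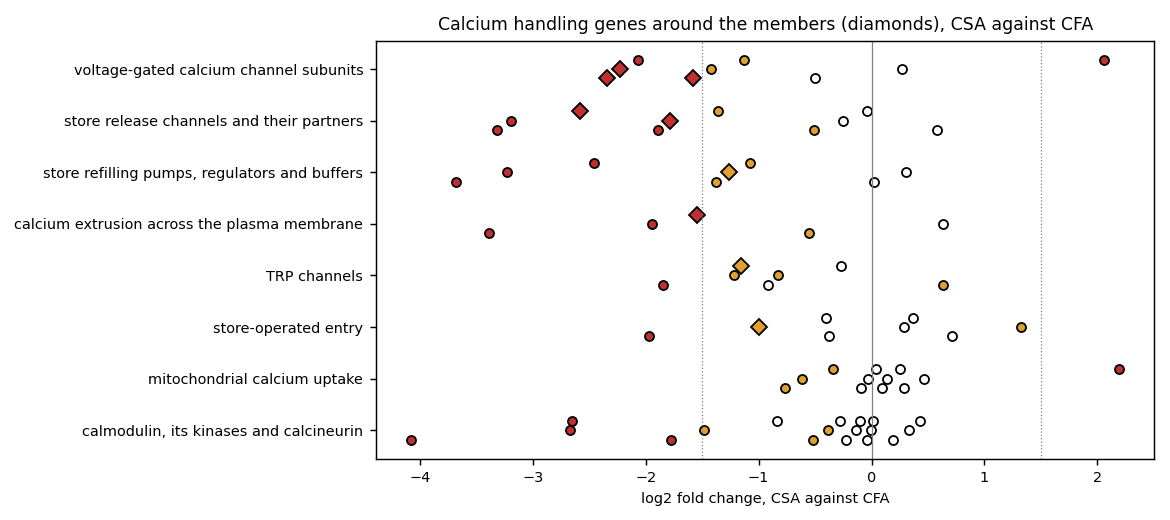
Log2 fold change of CSA against CFA for the tested genes of the 8 lists, 1 point per gene, with the 9 tested members as diamonds. Red points were called, yellow points passed the adjusted p alone and white points did not pass, and dotted lines mark the fold limit. Called genes lie to the left except Cacna1d and Mcub.

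Genes with the most similar profile over the 12 libraries were found by the root mean square difference of centred log2 values, a description that shares libraries and groups across all genes. The nearest 2 were Rnd2 (0.0938) and Mical3 (0.0967) for Cacna1c, Enpp5 (0.178) and Rgs7bp (0.208) for Cacnb2, and Gm15738 (0.268) and Casz1 (0.274) for Cacna1h. For Itpr1 they were Syne2 (0.105) and Ppp1r12a (0.109), and for Ryr2 Susd5 (0.279) and Mylk (0.313). Mpdz (0.0636) and Plcl1 (0.0689) were nearest to Atp2a2, Aplp2 and Fermt2 (both 0.116) to Atp2b4, Slc16a7 (0.0962) and Chd6 (0.101) to Trpc1, and Tmem245 (0.0938) and Igf1r (0.0966) to Stim1. Among the 9 genes themselves, Atp2a2 and Trpc1 were the closest pair (0.111) and Ryr2 and Stim1 the farthest (0.899).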

How the data were processed

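RNA-Seq was carried out on poly(A) RNA from 12 abdominal aortas, primed with random hexamers, with no step that marks the strand described. The authors deposited FPKM, 1 value per gene and mouse, without pooling. The submitters' processing notes name mm10, HISAT2 2.0.5, StringTie 1.3.3b and featureCounts 1.5.0-p3, without their roles. The columns were matched to mice by the labels, and 0 columns were left unused. GENCODE annotation of GRCm38 gave exon lengths, with which 97.8% to 98.4% of values under 100 fragments were whole within 0.02, and their sums gave the depth. The deposited values already had equal median ratios between libraries. A value of 0 allows 3 fragments, for counting error only.

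Values were tested as log2(FPKM + 0.1) with limma 3.58.1 in R 4.3.3 (lmFit, eBayes with trend and robust settings), 1 coefficient per group, all 12 libraries, two-sided, with Benjamini-Hochberg adjustment. Fold changes are on that scale, which understates those of low genes. Calls needed an adjusted p below 0.05 together with a log2 fold change larger than 1.5 in size. The members and lists were chosen with earlier results of these data known. Named pathway genes were, per list, the called genes with the largest change, up to 3 in each direction, and Slc8a1, Pkd2, Trpm4, Trpv2, Orai1, Orai2, Orai3, Mcu and the family members were named after their values were seen. The p-values of limma set each difference against a spread between mice that is pooled over the groups and drawn towards a trend over all features. Alternatives covered the call rule, pseudocount, filter, scaling, variance model, samples in the fit and each mouse left out.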

Additional observations from a re-analysis of the deposited data

Results flagged for a closer look

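The difference between genotypes changed with Ang II for 5 of the 9 tested genes by the interaction test of limma with Benjamini-Hochberg adjustment and the fold limit, beside 7.31% of all features called in that direction, and all 9 passed the adjusted p. The count was 3 without CSA02. The genotype difference under Ang II minus that under saline was -3.19 for Ryr2, -2.06 for Cacnb2, -1.75 for Cacna1h, -1.62 for Itpr1 and -1.61 for Atp2b4, on the log2 scale. For Ryr2 the estimates under saline and under Ang II had opposite signs, 0.60 and -2.58, the first of which did not pass (limma adjusted p = 0.689). The value for Cacna1h was the least stable of these 5, its call being lost under 16 of 20 alternatives: its adjusted p ranged from 0.00777 to 0.137 over the alternatives. Without CSA03, in which it had 6 fragments, its estimate was -1.28.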

How the results depend on the processing

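All 9 tested genes kept an adjusted p under 0.05 between CSA and CFA, in the same direction, under every alternative that tested them against no change, the highest being 0.0335 for Cacna1h; limma treat, which tests against a log2 limit of 1, called 5 of them. The count of called genes depended on the fold limit and the low levels. Between CSA and CFA, 6 called genes became 1 with a pseudocount of 1 and 2 with a mean FPKM of at least 5, a filter that leaves 4 of the 9 genes tested; leaving out each mouse gave 5 to 6. Between CSA and CSS, 7 became 3 and 2 under the same settings, and 6 to 8 with a mouse left out. For the interaction, 5 became 9 with no fold limit, 1 with limma treat, 2 with a pseudocount of 1 and 2 with the filter at 5, and 3 to 6 with a mouse left out. Without both CFS68 and CSS55, an alternative chosen after seeing the data, it was 3, with Cacnb2 at an adjusted p of 0.0502 by limma. Over all features, a pseudocount of 1 moved the calls between CSA and CFA from 1314 higher and 1214 lower to 918 and 683, and leaving out CSA01 gave 836 and 1327, CSA02 850 and 1328, and CSA03 881 and 1059. Trpc1 between CSS and CFS changed sign, from 0.04 to between -0.022 and 0.11 with a mouse left out. The members called between CSS and CFS and between CFA and CFS stayed at 0 in every alternative. Median-of-ratios scaling left the values as deposited. With an equal sum per library the count between CSA and CFA was 5, since Atp2b4 was at -1.46, short of the fold limit. With no filter on low values Trpc6 was tested and not called, with adjusted p-values of 0.462 to 1 over the 5 contrasts. No paired analysis was possible because the groups share no replicate numbers.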
